A study of Mus musculus with 4 samples.

Results

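The 10 genes of the Notch pathway described here, of 32285 genes counted, were followed through the cell classes of the postnatal mouse thyroid. They are 4 receptors (Notch1, Notch2, Notch3 and Notch4), 4 ligands (Dll1, Dll4, Jag1 and Jag2) and 2 target genes (Hey1 and Hes1), picked by name from the gene column of the count tables, and all 10 were found there. The animals were C57BL/6 mice with no engineered allele or treatment named in the labels, and thyroids were taken at postnatal day 5, 10, 20 and 30. Cells of 10 mice were combined for each age and run as a single 10x 3′ library, so that no age has a replicate and a pool cannot be split into its mice. In this droplet assay every transcript is counted through a unique molecular identifier (UMI), and a level here is the number of UMIs of a gene per 1000000 UMIs of a class (CPM). Since the reads come from the 3′ ends of transcripts and carry no length scale, a level is compared between classes and libraries, not between genes. The question was which cells of the gland carry the receptors, which carry the ligands, and where the targets are high.

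Notch receptors are single-pass membrane proteins that are activated by ligands of the Delta and Jagged families on a neighbouring cell. Ligand binding exposes the receptor to ADAM proteases and then to gamma-secretase, and the released intracellular domain joins the DNA-binding protein RBPJ to switch on genes such as those of the Hes and Hey families of transcriptional repressors. In blood vessels the pathway is known for arterial identity, for the choice between tip and stalk cells during sprouting, and for the maintenance of mural cells, while in the thymus Notch1 drives the commitment of T cell precursors.

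The annotation (GENCODE on the mouse build GRCm38) places the members on 5 chromosomes. On chromosome 2 lie Notch1 (ENSMUSG00000026923, 26457903 to 26516663, minus strand), Dll4 (ENSMUSG00000027314, 119325784 to 119335962, plus strand) and Jag1 (ENSMUSG00000027276, 137081456 to 137116644, minus strand). On chromosome 17 lie Notch3 (ENSMUSG00000038146, 32120820 to 32166852, minus strand), Notch4 (ENSMUSG00000015468, 34564268 to 34588503, plus strand) and Dll1 (ENSMUSG00000014773, 15367354 to 15376872, minus strand). Notch2 (ENSMUSG00000027878, 98013527 to 98150361, plus strand) and Hey1 (ENSMUSG00000040289, 8663359 to 8667256, minus strand) are on chromosome 3. Jag2 (ENSMUSG00000002799, 112907819 to 112929776, minus strand) is on chromosome 12 and Hes1 (ENSMUSG00000022528, 30064384 to 30067796, plus strand) on chromosome 16.

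The promoters of 4 members that set the vascular classes apart are shown: Notch3 (mural cells), Notch4 and Dll4 (arterial and capillary endothelium) and Dll1 (vein). They are RefSeq windows on GRCm38.p6 of 300 bases in the sense of the gene, chr17:32166841-32167140 (minus strand), chr17:34564045-34564344 (plus strand), chr2:119325534-119325833 (plus strand) and, for the upstream of the 2 Dll1 starts, chr17:15376883-15377182 (minus strand). Capitals mark GC boxes (GGGCGG on either strand).
Notch3: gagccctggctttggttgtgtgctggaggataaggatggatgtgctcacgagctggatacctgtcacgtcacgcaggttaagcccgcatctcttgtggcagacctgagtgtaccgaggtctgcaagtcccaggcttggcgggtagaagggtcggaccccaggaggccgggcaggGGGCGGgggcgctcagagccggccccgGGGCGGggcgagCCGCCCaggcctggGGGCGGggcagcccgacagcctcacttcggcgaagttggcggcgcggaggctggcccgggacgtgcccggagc
Notch4: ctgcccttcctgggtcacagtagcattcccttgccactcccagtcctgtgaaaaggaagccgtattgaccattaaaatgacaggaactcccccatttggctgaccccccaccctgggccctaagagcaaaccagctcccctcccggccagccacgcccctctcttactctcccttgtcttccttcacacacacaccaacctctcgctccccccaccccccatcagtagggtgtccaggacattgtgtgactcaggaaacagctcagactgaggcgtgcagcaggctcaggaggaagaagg
Dll4: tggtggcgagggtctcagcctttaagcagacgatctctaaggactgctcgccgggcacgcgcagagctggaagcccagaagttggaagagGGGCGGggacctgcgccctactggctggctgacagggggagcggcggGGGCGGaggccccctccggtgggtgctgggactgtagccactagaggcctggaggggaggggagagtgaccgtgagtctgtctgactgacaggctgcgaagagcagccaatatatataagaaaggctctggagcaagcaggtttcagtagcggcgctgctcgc
Dll1: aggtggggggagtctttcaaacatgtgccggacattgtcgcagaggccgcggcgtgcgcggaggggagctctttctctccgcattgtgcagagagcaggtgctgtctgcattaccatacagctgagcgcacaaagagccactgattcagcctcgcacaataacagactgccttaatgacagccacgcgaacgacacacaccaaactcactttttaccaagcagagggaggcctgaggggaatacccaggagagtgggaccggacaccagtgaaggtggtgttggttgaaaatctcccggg
The Notch3 window holds 4 GC boxes, the Dll4 window 2, and those of Notch4 and Dll1 none; 35.7% of 32851 promoter windows of this length hold at least 1. The Notch4 window has 5 CpG dinucleotides and the Notch3 window 25. The letters TGGGAA, the core of the RBPJ motif, were searched on both strands and are in none of the 9 windows found for 8 members, whereas 25.6% of all windows hold them. Hey1 and Hes1 had no window.

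The 4 libraries held 54921806 to 89039113 UMIs and 6555 to 15297 listed cells, of which 12956, 5652, 6150 and 4820 were kept for the libraries labelled day 5, 10, 20 and 30 (the order of all quadruples of values below). Their cells had median depths of 3296, 5141, 2916 and 5755 UMIs. The ages rest on the labels: in the authors' barcode table the library labelled day 5 carries number 4 and that labelled day 30 number 1, and whether these 2 labels are exchanged cannot be told from the files. The library labelled day 5 listed the most cells (15297) and that labelled day 30 the fewest (6555). The paper keeps more cells at its oldest age than the library so labelled lists. Its cell numbers thus go with exchanged labels, but this was not tested further and no library was reassigned. With exchanged labels every ratio of day 30 over day 5 would turn its sign. Cycling endothelial-like cells (3, 112, 0 and 86) and Esm1-positive capillary-like cells (13, 147, 3 and 90) are found mostly in the libraries labelled day 10 and day 30, which are also the deeper ones. Barcodes are shared: among the libraries labelled day 10, 20 and 30, 97.4% to 98.8% of the cells' barcodes reappear in another matrix, there with a median of 8 to 12 UMIs, and in pairs with day 5 33.6% to 49.9% do, with a median of 1 UMI. Each value is therefore given per library. Cells were clustered without the Notch genes and named from markers as 26 classes, each called X-like, while 1913, 675, 463 and 411 cells stayed unnamed or mixed. Low levels have to be read against free RNA in near-empty droplets, which gave 146 to 221 CPM of Hes1, 29.6 to 53.8 CPM of Notch1, 14.7 to 35.3 CPM of Notch3 and at most 22.1 CPM of any other member. A cell class can stand far below these levels, so they are not the amount that each class carries.

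The receptors were highest in different cells. Notch1 was highest in endothelial classes, Notch4 was largely limited to blood endothelium, Notch3 was highest in mural cells and Notch2 in myeloid cells. Among ligands, Dll4 and Jag2 were highest in arterial and capillary endothelium, Dll1 in vein, and Jag1 in smooth muscle, arterial and ILC2-like cells. Mean levels over libraries ran from below 1 CPM to 1351 ± 107 CPM (SD, n = 3 libraries) for Notch3 in pericyte-like cells.

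**Figure D1:**
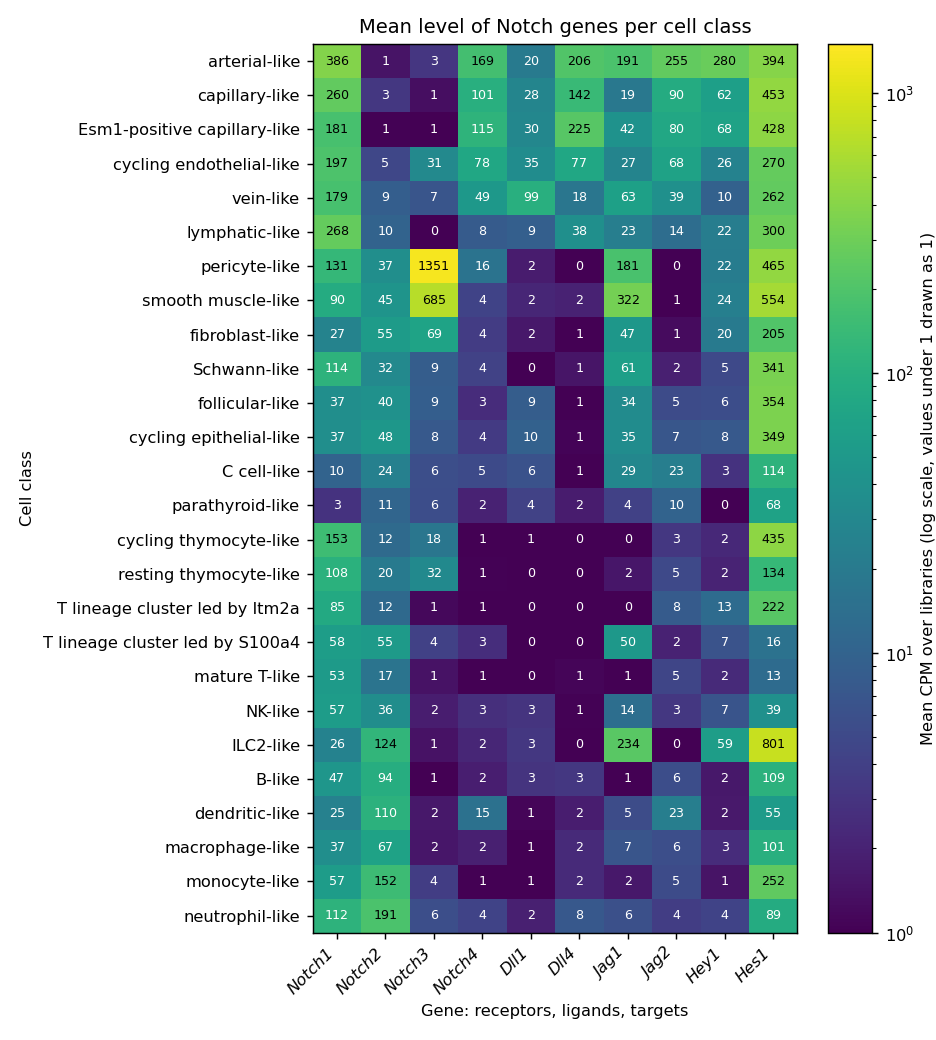
Mean level of each Notch gene (columns) in the 26 cell classes (rows), in CPM averaged over libraries with at least 10 cells of the class; the colour scale is logarithmic and the numbers are the means. Notch3 stands at 1351 CPM in pericyte-like cells, Notch1 at 386 CPM in arterial-like cells and Hes1 at 801 CPM in ILC2-like cells.

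The endothelial receptors followed the order arterial, capillary, vein. Notch1, which acts in arterial specification, stood in arterial-like cells at 339.5, 452, 346 and 409 CPM, in capillary-like cells at 260.4, 266, 261 and 252 CPM, and in vein-like cells at 197, 177, 179.9 and 163 CPM. The ranges of the 3 classes did not overlap. Notch4, a receptor largely restricted to endothelium, stood at 123, 191, 173 and 189 CPM in arterial-like, 105, 111, 95.3 and 92.4 CPM in capillary-like and 46.6, 44.3, 70.4 and 35.9 CPM in vein-like cells. Every arterial value was above every capillary value, and every capillary value above every vein value. The arterial-like class had 446, 177, 63 and 102 cells, the capillary-like class 2972, 636, 308 and 278, and the vein-like class 186, 51, 22 and 27. All 7 endothelial markers were detected in each class and library, and all 8 arterial markers in each library of the arterial-like class.

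Among ligands, Dll4, the Delta ligand of arterial and sprouting endothelium, was lowest in veins among the 3 classes. Its levels were 224, 233, 188 and 181 CPM in arterial-like and 164, 153, 135 and 118 CPM in capillary-like cells. Vein-like cells stood at 53.5, 14.8, 0 and 2.76 CPM. For their 0 UMIs in the library labelled day 20 the floor, the level of 3 counts, was 23.5 CPM. The vein-like value labelled day 5 lay above the 21.0 CPM of free RNA. With cells thinned to 1000 UMIs, 14.9% to 21.0% of arterial-like cells and 0% to 2.82% of vein-like cells had a Dll4 UMI (unthinned 48.4% to 68.6% and 0% to 8.60%; 0 of 20 to 50 thinned vein-like cells allow 7.11% to 16.8%), against 0% to 0.41% of B-like cells, a class outside the vessels. Dll1, a Delta ligand, was instead highest in veins among the 3 classes. In vein-like cells it stood at 98.4, 114, 78.2 and 108 CPM, and in arterial-like cells at 19.7, 22.4, 14.9 and 23.0 CPM, with no overlap. Capillary-like cells held 36.2, 33.8, 14.7 and 26.9 CPM of Dll1, a range that overlaps the arterial one. After thinning, 8.0% to 20.0% of vein-like cells and 0.99% to 3.98% of arterial-like cells held a Dll1 UMI, against 0% to 1.02% of B-like cells (unthinned 23.1% to 63.0%, 6.73% to 24.5% and 0% to 2.04%). Median depths were 2747 to 9949 UMIs for vein-like, 3360 to 8275 for arterial-like and 1698 to 3743 for B-like cells.

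Both Jagged ligands were higher in arterial-like than in vein-like or capillary-like cells. Jag2 stood at 279, 237, 245 and 260.2 CPM in arterial-like, 126, 90.3, 69.9 and 76.1 CPM in capillary-like and 38.0, 65.3, 23.5 and 30.3 CPM in vein-like cells. Jag1, the Jagged ligand that endothelium presents to the vessel wall, gave 137, 203, 237 and 187 CPM in arterial-like cells, 44.9, 90.6, 39.1 and 77.2 CPM in vein-like cells and only 15.7 to 20.5 CPM in capillary-like cells. For Jag1 the capillary is thus the lowest of the 3 classes, while for Jag2 it lies between artery and vein. The arterial Jag1 level was uneven within the class: its Fbln5-rich cells (192, 41, 33 and 28 of the 446, 177, 63 and 102 cells) stood at 375 to 908 CPM, and the remaining cells at 32.9 to 41.5 CPM, below vein-like cells in 3 of 4 libraries.

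The target Hey1, a transcriptional repressor that acts in arterial specification, showed the widest spread. Arterial-like cells held 161, 376, 218 and 364 CPM, capillary-like cells 34.2, 64.0, 88.4 and 63.0 CPM and vein-like cells 25.9, 10.5, 0 and 2.76 CPM. Every arterial value exceeded every value of the other 2 classes. Hes1, a repressor used by many cell types, differed less, with 562, 423, 309 and 283 CPM in arterial-like, 547, 459, 421 and 386 CPM in capillary-like and 280, 287, 227 and 254 CPM in vein-like cells. Arterial and capillary values of Hes1 overlap.

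**Figure D2:**
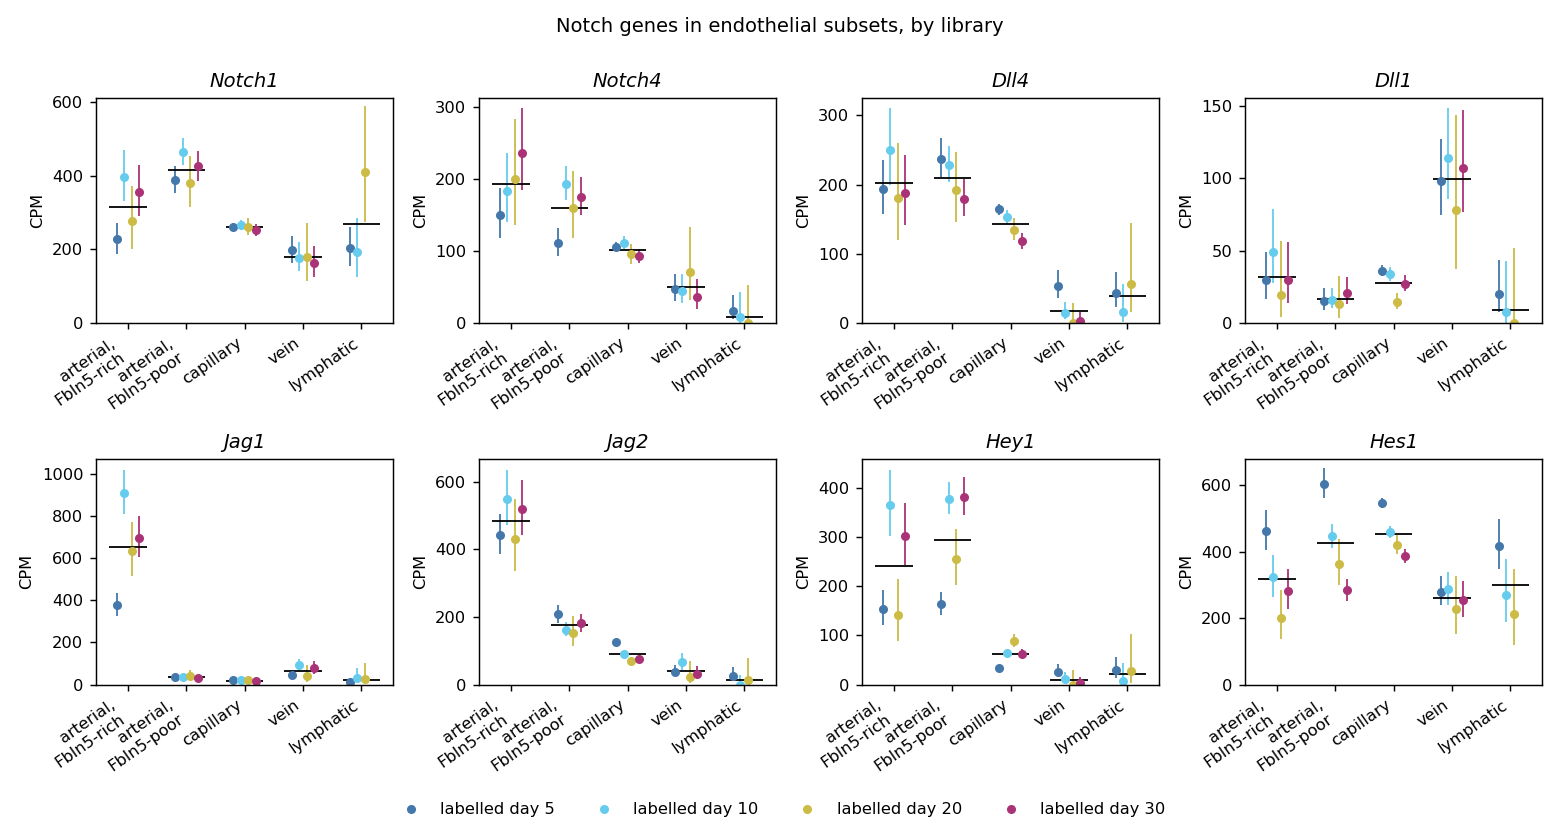
Levels of 8 Notch genes in CPM (vertical axes) in Fbln5-rich and Fbln5-poor arterial-like, capillary-like, vein-like and lymphatic-like cells. Each point is 1 library with its exact 95% Poisson interval (counting error only) and black lines are means over libraries; Jag1 in Fbln5-rich cells stands at 375 to 908 CPM, above every other class drawn.

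Sums of UMIs per class and library were compared by the quasi-likelihood test of edgeR, in which each library was a block, and p-values were adjusted after Benjamini-Hochberg over all genes tested; log2 fold changes are given ± SE. The test treats the 4 libraries, each a different pool and labelled age, as the repeats, so that a p speaks to how stable a difference between classes is over libraries. The classes were made from other genes of these same cells and are not independent of the members. Between arterial-like and vein-like cells all 8 members tested passed, 7 higher in arterial-like cells and 1 lower, against 18.6% of 6752 genes. Notch1 differed by 1.03 ± 0.15 (edgeR adjusted p = 0.00012) and Notch4 by 1.76 ± 0.20 (edgeR adjusted p = 1.6e-05). Dll4 differed by 3.10 ± 0.36 (edgeR adjusted p = 1.7e-05), Jag2 by 2.52 ± 0.21 (8.3e-07), Jag1 by 1.39 ± 0.18 (5.8e-05) and Dll1, in the other direction, by -2.38 ± 0.18 (3.3e-07). Hey1 had the largest difference, 4.26 ± 0.39 (edgeR adjusted p = 1.8e-06). Hes1, at 0.49 ± 0.14 (edgeR adjusted p = 0.025), lost its call in 7 of 12 alternatives, without the library labelled day 5 (0.32) or day 10 (0.47) among them, and with doublets kept it stood at -0.031.

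Each of these classes was also set against all capillary-like cells, comparisons chosen after the levels were seen. Arterial-like cells differed in 7 of 8 members (6 higher, 1 lower), with 16.5% of 9723 genes called. Jag1 was higher by 3.22 ± 0.12, Hey1 by 2.20 ± 0.12, Jag2 by 1.45 ± 0.10, Notch4 by 0.66 ± 0.10, Notch1 by 0.56 ± 0.08 and Dll4 by 0.48 ± 0.07 (edgeR adjusted p between 9.1e-14 and 8.3e-05). Dll1 was lower by -0.57 ± 0.16 (edgeR adjusted p = 0.018), a call lost or turned in 8 of 12 alternatives, among them without the library labelled day 5 or day 10 and with doublets kept (0.14). Notch1 and Dll4 lost their calls without the library block and with no centring per library (0.16 and 0.24), and Notch1 also with doublets kept (0.19). Hes1 stood at -0.23 ± 0.09 and did not pass (edgeR adjusted p = 0.082), while with at most 10000 UMIs per cell it passed in the other direction (0.30, edgeR adjusted p = 0.028) and in 5 alternatives it passed as lower.

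Vein-like cells differed from capillary-like cells in 9 of 9 members tested, 3 higher and 6 lower, against 15.7% of 9136 genes. Dll1 and Jag1 were both higher by 1.84, with SE of 0.18 and 0.24 (edgeR adjusted p = 8.4e-07 and 2.3e-05). Dll4 was lower by -2.64 ± 0.34 (edgeR adjusted p = 1.6e-05), Hey1 by -1.995 ± 0.42 (0.0027), Notch4 by -1.13 ± 0.19 (0.00028), Jag2 by -1.12 ± 0.22 (0.0011), Hes1 by -0.72 ± 0.12 (0.00028) and Notch1 by -0.47 ± 0.13 (0.014). Notch2 was higher by 1.61 ± 0.49 (edgeR adjusted p = 0.033), but on 1 to 5 UMIs per library of vein-like cells, and lost its call without any of the libraries labelled day 10, 20 or 30. Without the library labelled day 10 the calls of Hey1 and Notch1 were lost too, and that of Notch1 also without day 30. When artery and vein were joined as larger vessels and compared with capillary-like cells, 6 of 8 members passed (5 higher, 1 lower; 16.2% of 10081 genes), with Jag1 at 3.00 ± 0.12, Hey1 at 1.86 ± 0.12, Jag2 at 1.14 ± 0.10, Notch4 at 0.41 ± 0.10, Notch1 at 0.38 ± 0.08 and Hes1 at -0.34 ± 0.08. In that union Notch1, Notch4, Dll4 and Hes1 turned direction under other cell filters or clusterings.

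**Figure D3:**
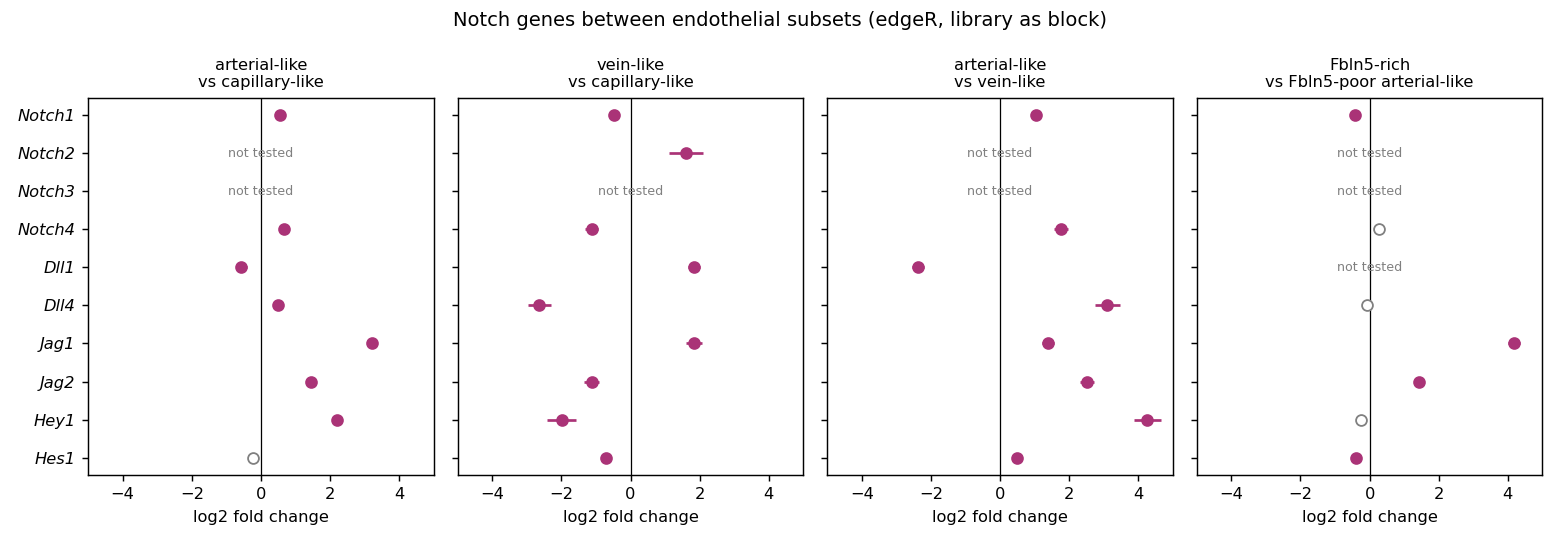
Log2 fold change (horizontal axes, edgeR with the library as block) of each Notch gene in 4 endothelial comparisons; bars are SE, filled points passed an adjusted p of 0.05 and open points did not. Dll1 and Jag1 lie to the right in vein against capillary, while Dll4 and Hey1 lie to the left there and to the right in artery against vein.

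Within arterial-like cells the Jagged ligands were uneven. Subclusters with at least 500 CPM of Fbln5, an elastic fibre gene of larger arteries, formed a Fbln5-rich group (192, 41, 33 and 28 cells) and the others a Fbln5-poor group (254, 136, 30 and 74 cells). This division was chosen after the levels were seen. Jag1 stood at 375, 908, 631 and 696 CPM in the Fbln5-rich and at 33.4, 34.3, 41.5 and 32.9 CPM in the Fbln5-poor group. Jag2 stood at 442, 548, 432 and 519 CPM against 208, 163, 153 and 182 CPM. Neither Jagged gene overlapped between the groups. Of 7 members tested 4 passed, against 18.2% of 5981 genes: Jag1 by 4.19 ± 0.18 (edgeR adjusted p = 1.5e-11), Jag2 by 1.44 ± 0.13 (1.4e-07), Notch1 by -0.44 ± 0.12 (0.018) and Hes1 by -0.40 ± 0.13 (0.040). The calls of Notch1 and Hes1 were both lost without the library labelled day 5, and that of Hes1 also without day 10 or day 20. Dll4 (-0.06 ± 0.13), Hey1 (-0.26 ± 0.14) and Notch4 (0.26 ± 0.14) did not pass, with edgeR adjusted p of 0.83, 0.22 and 0.25. The whole pericyte marker list summed to 20 to 335 CPM in the Fbln5-rich and 38 to 88 CPM in the Fbln5-poor group, and Notch3 to 0, 36.6, 0 and 3.28 CPM in the Fbln5-rich group; the part of mural RNA in the Jag1 difference was not tested. A Fbln5-poor group formed only in the main clustering and with the upper UMI limit.

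Capillary-like cells were not uniform in Dll4 and Hey1 either. In their subcluster with the highest Dll4, Dll4 stood at 252, 243, 210.4 and 104 CPM and Hey1 at 55.0, 119.7, 163 and 115 CPM. In the subcluster with the lowest, Dll4 stood at 53.2, 35.7, 42.9 and 40.2 CPM and Hey1 at 6.25, 8.93, 10.7 and 11.5 CPM. The 2 subclusters did not overlap in either gene, and Hes1 was 242 to 627 CPM in the first and 236 to 341 CPM in the second. These subclusters were picked for their levels, so this is a description with no test.

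Esm1-positive capillary-like cells, with the markers of sprouting tips, differed from other capillary-like cells in 1 of 8 members, with 2.47% of 9748 genes called. For the labels day 5, 10 and 30, Dll4 stood at 283, 219 and 173 CPM against 164, 153 and 118 CPM, a difference of 0.56 ± 0.14 (edgeR adjusted p = 0.0073). The call was lost under DESeq2 (adjusted p = 0.9996), without the low-count filter (0.053), and without the library labelled day 10 or day 30. Leaving out either of these left 2 libraries. The class formed only in the main clustering, and its 13 cells labelled day 5 held 9 Dll4 UMIs.

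Lymphatic-like cells (51, 15 and 13 cells, the library labelled day 30 with 1 cell being left out) carried Notch1 and Hes1. They held less Notch4, Jag2, Dll4 and Hey1 than blood endothelium. Notch1 stood at 203, 194 and 409 CPM, below the 268 and 278 CPM of all blood endothelial-like cells in the libraries labelled day 5 and day 10 and above their 273 CPM in that labelled day 20, and did not pass (-0.19 ± 0.26, edgeR adjusted p = 0.74). Notch4, with 16.6, 7.74 and 0 CPM, was lower by -3.26 ± 0.48 (edgeR adjusted p = 0.00014), Jag2 by -2.94 ± 0.47 (0.00032), Dll4 by -2.12 ± 0.36 (0.0006) and Hey1 by -1.72 ± 0.46 (0.016). Thus 4 of 8 members passed, each lower, against 15% of 9579 genes. Hes1 stood at 419, 271 and 212 CPM and did not pass (-0.64 ± 0.25, edgeR adjusted p = 0.11). Dll1 (-1.37 ± 0.57, edgeR adjusted p = 0.14) and Jag1 (-1.37 ± 0.44, edgeR adjusted p = 0.0501) did not pass either. The Hey1 call was lost without the library labelled day 10, which left 2 libraries.

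Mural cells were set apart by high Notch3, and their Jag1 was high as well. Pericyte-like Jag1 (150.4 to 199 CPM) overlapped the arterial-like and ILC2-like values. Smooth muscle-like Jag1 (252 to 370 CPM) lay above every arterial-like value and overlapped the ILC2-like values. Both mural classes stayed below Fbln5-rich arterial cells. Notch3, which maintains the smooth muscle of arteries, stood in pericyte-like cells (64, 72 and 79 cells, labelled day 5, 10 and 30) at 1412, 1228 and 1413 CPM. In smooth muscle-like cells (170, 35, 11 and 41 cells) it stood at 478, 467, 1081 and 713 CPM, in fibroblast-like cells at 54.4, 87.8, 38.1 and 95.02 CPM, and in capillary-like cells at no more than 2.18 CPM. Pericyte and smooth muscle values did not overlap. Of cells thinned to 1000 UMIs, 64.6%, 65.2% and 78.2% of pericyte-like cells and none of 49 to 295 B-like cells per library had a Notch3 UMI, which allows 1.24% to 7.25%; unthinned, 82.8% to 97.5% and 0% to 1.40% had one. Pericyte-like cells had median depths of 1307, 3090 and 4173 UMIs. All 8 pericyte markers were detected in pericyte-like cells, and the endothelial marker list summed to 73 to 129 CPM there.

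Against all blood endothelial-like cells, mural cells differed in 9 of 10 members, 3 higher and 6 lower, in a comparison that called 41.5% of 10168 genes. Notch3 was higher by 7.57 ± 0.36 (edgeR adjusted p = 2.1e-12), Notch2 by 3.55 ± 0.31 (1.1e-08) and Jag1 by 2.41 ± 0.17 (9.2e-10). Lower were Notch1 by -1.58 ± 0.21, Notch4 by -3.64 ± 0.26, Dll1 by -3.40 ± 0.43, Dll4 by -6.69 ± 0.40, Jag2 by -6.99 ± 0.41 and Hey1 by -2.41 ± 0.26, with edgeR adjusted p from 4.5e-11 to 5.7e-06. Dll4 and Jag2 had 0 UMIs in every library of pericyte-like cells and at most 2 in smooth muscle-like cells, so their fitted folds depend on the prior count. Hes1 was high on both sides and did not pass (0.15 ± 0.15, edgeR adjusted p = 0.48). These 9 calls and their directions were the same in all alternatives run, with 9 passing in each.

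Pericyte-like and smooth muscle-like cells differed in 3 of 5 members tested, 1 higher and 2 lower in pericytes, with 26.2% of 4958 genes called. Notch3 was higher in pericyte-like cells by 1.11 ± 0.18 (edgeR adjusted p = 0.00011). Jag1 stood at 199, 195 and 150.4 CPM in pericyte-like and 252, 310, 355 and 370 CPM in smooth muscle-like cells, lower by -1.03 ± 0.22 (edgeR adjusted p = 0.0014). Hes1, with 686, 430.1 and 277 CPM against 593, 680, 494 and 449 CPM, was lower by -0.58 ± 0.21 (edgeR adjusted p = 0.041), and its values overlap between the classes. Without the library labelled day 30, which left 2 libraries, only Notch3 passed. The Jag1 call was also lost with at most 5% mitochondrial UMIs (-0.39) or doublets kept (-0.69). The Hes1 call was lost in 8 of 11 alternatives. C cell markers summed to 75 to 9360 CPM and smooth muscle markers to 991 to 4894 CPM in pericyte-like cells, and their part in these differences was not tested.

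**Figure D4:**
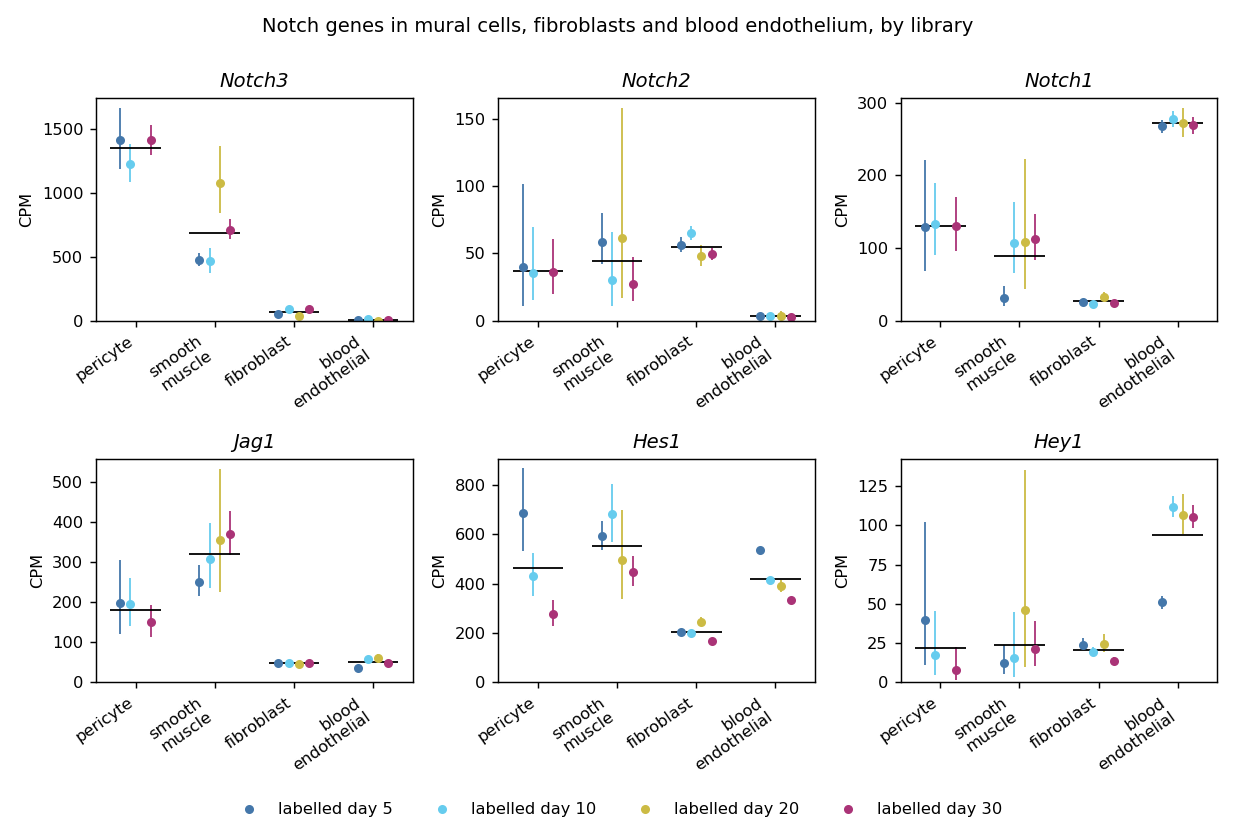
Levels of 6 Notch genes in CPM (vertical axes) in pericyte-like, smooth muscle-like, fibroblast-like and blood endothelial-like cells, 1 point per library with its exact 95% Poisson interval and black lines at the means. Notch3 in pericyte-like cells lies between 1228 and 1413 CPM, above all smooth muscle values, and Jag1 is higher in both mural classes than in blood endothelium.

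The endocrine cells carried few of the members at a high level. Follicular-like cells, the source of thyroid hormone (2198, 443, 263 and 436 cells), held Hes1 at 325, 391, 301 and 397 CPM, Notch1 at 26.8, 39.6, 39.1 and 41.4 CPM and Notch2 at 40.3, 49.4, 36.3 and 34.4 CPM. C cell-like cells, which make calcitonin (132, 111, 43 and 78 cells), held Hes1 at 136, 142, 79.5 and 96.7 CPM, Notch1 at 13.8, 10.7, 7.75 and 8.68 CPM and Jag2 at 20.1, 20.8, 25.2 and 26.0 CPM. Notch1, Notch2 and Hes1 of C cells lay below those of follicular cells in every library, and the Jag2 levels (2.72 to 7.50 CPM in follicular cells) above. In C cells Hes1, Notch1 and Notch4 (3.88 to 7.44 CPM) were below the free RNA of the same library in all 4 libraries. Jag2 stood above it (19.6, 17.5, 16.1 and 11.6 CPM of free Jag2), but on 29, 31, 13 and 21 UMIs. In the library labelled day 5 the 2 Jag2 levels were nearly equal, and these margins were not tested. In follicular cells Jag2 was below free RNA and Notch1 near it, whereas Hes1 and Notch2 were above it in every library.

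Between C cell-like and follicular-like cells 5 of 9 members passed, 2 higher and 3 lower, in a comparison that called 45.5% of 11774 genes. Hes1 was lower in C cells by -1.35 ± 0.14 (edgeR adjusted p = 1.8e-07), Notch1 by -1.42 ± 0.22 (3.9e-05) and Notch2 by -0.51 ± 0.20 (0.042). Jag2 was higher by 2.44 ± 0.27 (edgeR adjusted p = 4.9e-07) and Notch4 by 1.34 ± 0.44 (0.018), the latter on 2 to 7 UMIs per library of C cells. The Notch2 call was lost without the library labelled day 10 or day 20, and the Notch4 call without day 5 or day 30. Jag1 stood at 24.2 to 34.9 CPM in C cells and 20.4 to 44.5 CPM in follicular cells and did not pass (0.07 ± 0.19, edgeR adjusted p = 0.79).

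Thymocyte-like cells came almost entirely from the libraries labelled day 20 and day 30, with 2596 and 776 resting and 517 and 337 cycling cells (2 resting cells carried the label day 10), and were not tested, since tests were kept to comparisons with at least 3 libraries. Notch1, the receptor of T lineage commitment, stood in cycling cells at 141 and 165 CPM and in resting cells at 94.8 and 121 CPM, against 67.0 and 45.2 CPM in mature T-like cells of the same libraries. Hes1, its target in early thymocytes, stood at 362 and 509 CPM in cycling, 73.8 and 194 CPM in resting and 6.57 and 11.3 CPM in mature T-like cells. In both libraries both genes had the order cycling, resting, mature, and Hes1 of resting and mature cells was near or below its free RNA level. Notch3, a receptor of immature thymocytes as well, stood at 18.5 and 16.8 CPM in cycling and 35.8 and 28.4 CPM in resting cells. Free RNA held 14.7 and 35.3 CPM of Notch3 in these libraries, and only the values labelled day 20 lay above it. Capillary-like cells of the library labelled day 30 stood at 0.57 CPM of Notch3, far below its free RNA. The part of free RNA in the thymocyte values was not tested.

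Among blood and immune classes, Notch2, a receptor used by myeloid and B cells, was high in some and low in others. It stood at 241, 159.8, 229 and 136 CPM in neutrophil-like, 151, 149, 194 and 112 CPM in monocyte-like and 85.4 to 134 CPM in dendritic-like cells, and at most 4.40 CPM in capillary-like and 2.99 CPM in arterial-like cells. The neutrophil and monocyte ranges overlap. NK-like cells (mean of 35.6 CPM), mature T-like cells (16.8 CPM) and resting and cycling thymocyte-like cells (19.7 and 12.5 CPM) stood below the 54.9 CPM of fibroblast-like and 40.1 CPM of follicular-like cells. A class with the markers of group 2 innate lymphoid cells (ILC2-like, 247, 108, 56 and 44 cells) had Hes1 at 887, 743, 643 and 930.2 CPM, Jag1 at 326, 242, 203.5 and 163 CPM and Hey1 at 66.2, 67.4, 40.7 and 59.7 CPM. Its Hes1 was the highest class mean, although its range overlaps that of smooth muscle-like cells. The mast cell marker list summed to 293 to 6135 CPM in this class, the mast cell gene Cma1 standing at 6891 CPM in those cells of the library labelled day 30 that held a mast marker UMI and at 0 UMIs in the libraries labelled day 5 and day 10. In the cells of the class without any mast marker UMI, Hes1 stood at 829, 544, 614 and 848 CPM and Jag1 at 322, 224, 186 and 126 CPM. Notch2 stood at 129, 155, 76.7 and 126 CPM in these cells and at 198, 143, 64.7 and 108 CPM in those with one. Both sets of Notch2 values overlap the dendritic-like range.

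Between the libraries labelled day 30 and day 5, 11 of 48 pairs of a member and a class differed at least 2-fold, 6 higher and 5 lower, as did 12.9% of the pairs of all genes in these 7 classes. By class the share of all genes was 10.4% in arterial-like, 13% in capillary-like, 15.6% in vein-like, 18.4% in pericyte-like, 12.8% in smooth muscle-like, 13.9% in follicular-like and 9.4% in C cell-like cells. With 1 library per age these are ratios of 2 libraries with counting intervals and no test. Hey1 in arterial-like cells was higher by a log2 ratio of 1.18 (95% interval 0.96 to 1.40), and Notch1 in smooth muscle-like cells by 1.80 (1.07 to 2.63), from 21 and 53 UMIs. In follicular-like cells Notch3, at 2.81, 13.9, 4.06 and 15.1 CPM, was higher by 2.42 (2.01 to 2.86), Hey1 by 1.26 (0.87 to 1.67), Jag2 by 1.25 (0.76 to 1.76) and Jag1, at 20.4, 44.4, 25.3 and 44.5 CPM, by 1.12 (0.94 to 1.31), with a median of 0.28 over all genes of that class. The follicular levels of Notch3, Hey1 and Jag2 were below free RNA in every library, and free Notch3 itself stood at 16.5, 22.1, 14.7 and 35.3 CPM; its part in these ratios was not tested. Different subclusters made up the follicular-like class in different libraries: 3 of them held 1869, 25, 68 and 60 of its cells and a pair of others 23, 386, 29 and 340, while 127 of the 263 cells labelled day 20 came from a subcluster with no cell labelled day 5. Lower were Hes1 in pericyte-like cells by -1.31 (-1.76 to -0.85), Dll4 in vein-like cells by -3.72 (-9.63 to -1.69) and Notch2 in smooth muscle-like cells by -1.06 (-2.13 to -0.16), while Notch2 and Notch3 in capillary-like cells rest on 6 and 2 UMIs in the library labelled day 30.

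The levels ran with the labelled age in 2 of the 11 pairs. Hes1 in pericyte-like cells (686, 430.1 and 277 CPM) was lower at each later label. Notch1 in smooth muscle-like cells (31.7, 107, 108 and 112 CPM) was higher at each, but nearly level after the label day 5. Its log2 ratio of day 20 over day 10 was 0.08 (interval -1.46 to 1.31), from 7 and 21 UMIs. Some order is met by chance, and the share of all genes with such an order was not counted. The same holds for the pairs under 2-fold named below. With the labels day 5 and day 30 exchanged 3 of the 11 would be ordered: Hes1 in pericyte-like cells would rise, follicular Notch3 and Jag1 would fall, and Notch1 in smooth muscle-like cells would have no order. All 170 smooth muscle-like cells labelled day 5 came from 2 subclusters with 13, 7 and 11 cells in the other libraries, and another subcluster held 0, 22, 4 and 30 cells, so that this difference is also one between subclusters. Arterial Hey1 and follicular Notch3 and Jag1 were low in the libraries labelled day 5 and day 20 and high in those labelled day 10 and day 30, which differ in depth and in cycling and Esm1-positive cells as given above; the part of these differences was not tested. With the labels day 5 and day 30 exchanged, the 2 high libraries would be the 2 youngest. Arterial Hey1 would then stand at 364, 376, 218 and 161 CPM from day 5 to day 30. The log2 ratio of day 20 over day 10, by label, was -0.78 for arterial Hey1, -1.75 for follicular Notch3 and -0.81 for follicular Jag1. Among pairs that differed less than 2-fold, Hes1 in arterial-like and capillary-like cells and Dll4 in capillary-like cells (164 to 118 CPM), as well as Jag1 in pericyte-like cells, also had a lower level at each later label, and Jag1 in smooth muscle-like and Jag2 in C cell-like cells a higher one. Since the pools also differ in the share of each cell type, a shift of cells within a class and a change of RNA per cell cannot be told apart.

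**Figure D5:**
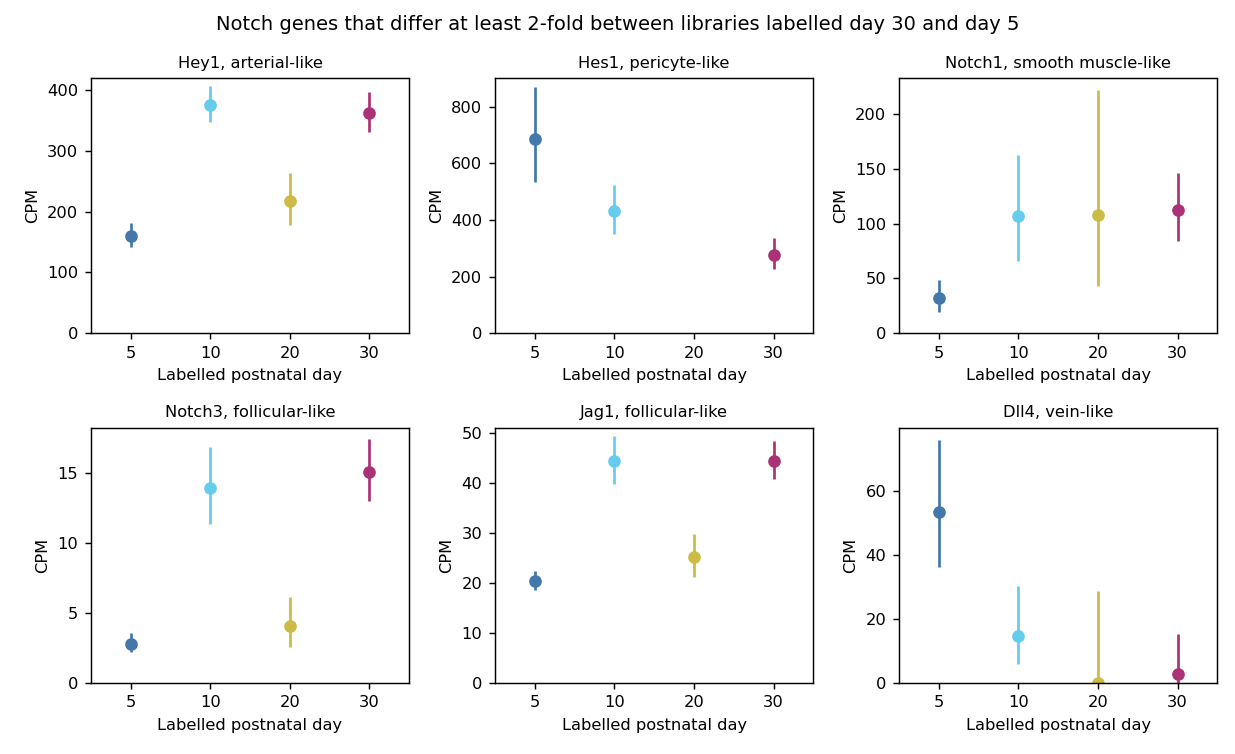
Levels in CPM (vertical axes) of 6 pairs of a Notch gene and a class that differ at least 2-fold between the libraries labelled day 30 and day 5, by labelled postnatal day; each point is 1 library with its exact 95% Poisson interval. Hey1 in arterial-like cells stands at 161, 376, 218 and 364 CPM, up and down with the label as given. Hes1 in pericyte-like cells stands at 686, 430.1 and 277 CPM, lower at each later label. With the labels day 5 and day 30 exchanged, Hey1 would read 364, 376, 218 and 161 CPM and Hes1 would rise.

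Of 53 other genes of the pathway (partners, fringes, proteases, nuclear factors, turnover and further targets), 43 could be tested between mural and blood endothelial-like cells, with 11 higher and 15 lower (41.5% of all genes called), and the median over the 43 was -0.14. The target Heyl, a mural member of the Hey family, had 219, 160 and 169 CPM in pericyte-like and 155, 147, 124 and 197 CPM in smooth muscle-like cells, against at most 1.62 CPM in blood endothelial-like cells (7.43 on the log2 scale). Dlk1, a Delta-like protein, was also higher in mural cells (6.04), and Egfl7, a secreted endothelial protein, and the fringe Mfng were lower (-6.65 and -6.12). Fringes add sugars to Notch receptors and thereby shift their response between Delta and Jagged ligands.

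Between pericyte-like and smooth muscle-like cells 6 of 26 were higher and 2 lower, in a comparison that called 26.2% of all genes. Hey2, a Hey family target, stood at 116, 127, 108 and 112 CPM in smooth muscle-like and 59.7, 17.7 and 10.4 CPM in pericyte-like cells (-2.63). Nrarp, a target that dampens Notch signals, was lower too (-1.44), and Dtx3 (1.34) and the protease Adam10 (1.10) were higher in pericytes.

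In arterial-like against vein-like cells 4 of 32 were higher and 2 lower, about the share of all genes called (18.6%). Lfng, a fringe, stood at 63.9, 50.6, 289 and 93.8 CPM in vein-like and 13.8, 25.3, 17.1 and 36.7 CPM in arterial-like cells (-2.01), with no overlap. Nrarp (1.21) and Mfng (0.82) were higher in arteries and Psen2, a gamma-secretase subunit, lower (-1.13). Of 39 genes, 4 were higher and 4 lower in arterial-like against capillary-like cells (16.5% of all genes called), 1 and 4 in vein-like against capillary-like cells (15.7%), 3 and 5 in the joined larger vessels (16.2%), and 1 and 0 in Esm1-positive cells (2.47%), where the gene was Mfng (0.52). None of these counts stands far from its share of all genes. In the Fbln5-rich arterial group 3 of 31 were higher, Hey2 (2.14) and Psen2 (1.15) among them, and 4 lower, with 18.2% of all genes called.

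Lymphatic-like cells had 5 of 41 higher and 6 lower, with 15% of all genes called. Dtx1, a ubiquitin ligase that acts on Notch receptors, stood there at 289, 387 and 268 CPM and at no more than 0.26 CPM in blood endothelial-like cells. C cell-like cells had 17 of 45 higher and 6 lower than follicular-like cells, with 45.5% of all genes called. The atypical ligand Dner stood at 113, 138, 151 and 108 CPM and Dll3, a Delta that acts within its own cell, at 44.95, 52.4, 40.7 and 81.9 CPM in C cells, and both were at or below 1.47 CPM in follicular cells.

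Across the 26 class means, on the log2(CPM + 1) scale and among 8364 genes with at least 50 CPM in a class, the gene most like Notch3 was Pdgfrb, the growth factor receptor of pericytes (Pearson r = 0.91), followed by Trarg1 and Slc2a4. Zfp366, Gpr4 and Ccdc85a were nearest to Notch4 (0.97 for the first), Btnl9, Exoc3l and Ssu2 to Dll4 (0.96), and Aqp1, Efna1 and Clic5 to Dll1 (0.90). For Jag1 they were Hlf, Sept8 and Atp2b4 (0.89), for Jag2 Mcf2l, Cmtm8 and Esm1 (0.86) and for Hey1 Unc5b, Eva1b and Apbb2 (0.87). Notch2 was nearest to Cd44, Ttc7 and Sorl1 (0.88), Notch1 to Rbm42, Rac1 and Becn1 (0.85), and Hes1 to Qser1, Rab11b and Ddah2 (0.73), the loosest of the 10. Among the members themselves Notch4 and Dll4 were closest (0.84), while Jag1 and Jag2 stood at 0.02. The classes share libraries and differ in depth, so these values are descriptions.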

How the data were processed

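Thyroid cells of C57BL/6 mice, 10 per labelled age, were profiled in 4 droplet libraries. The authors made the deposited counts with CellRanger on mm10: raw UMI counts per gene and barcode, neither filtered for cells nor normalized. Of the authors' table of 37503 cell barcodes only the barcode list was used. The submitters' processing notes name Seurat 3.1.4 and 3.6.3. All 4 matrices were assigned from the labels, and 0 columns of other samples were met.

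Cells with at least 200 UMIs, at most 10% mitochondrial and at most 5% hemoglobin UMIs were kept. The study's upper limit of 10000 UMIs was left to an alternative because it cut follicular-like cells from 3340 to 1821. The 6% of cells with the highest Scrublet scores were removed per library, since the automatic threshold marked 8.84%, 0.0166%, 0% and 0%. Cells were clustered with scanpy 1.11.5 and leidenalg 0.10.2 (3000 features, 30 components, resolution 1), then again within compartments with each gene centred per library (not in the T lineage). All Notch genes were left out of these features. Clusters were named from marker lists, by a rule settled after the clusters had been seen. The members, lists and comparisons were chosen with earlier results of these data known.

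UMIs were summed per class and library (at least 10 cells). Comparisons with at least 3 libraries were tested with edgeR 4.0.16 (TMM, filterByExpr, quasi-likelihood F test, library as block, Benjamini-Hochberg over all genes, threshold 0.05). Leaving out 1 library left 2 in the Esm1-positive, lymphatic and pericyte against smooth muscle comparisons. The part of fewer libraries in the calls lost there was not tested. DESeq2 1.42.0 was an alternative, in R 4.3.3. The other steps ran in Python 3.11.15 (scipy 1.17.1, numpy 2.4.6, pandas 2.3.3, matplotlib 3.10.9). Tested on simulated data for larger-vessel-like against capillary-like cells (10013 genes, 200 changed), edgeR recovered 97% of 4-fold and 57% of 2-fold changes with 4 false calls. The simulation used a fixed dispersion for all genes, not estimated from these data, and the same class difference in every library. Only genes with many UMIs were changed. Recovery and false calls in the real data can therefore differ from these values. Depth was 54921806 to 89039113 UMIs per library. Intervals are exact 95% Poisson intervals, or binomial for ratios with 0.5 UMIs added. A count of 0 stays at 0 CPM, and the floor given beside it is the level of 3 counts. This floor lies below the exact upper limit drawn in the figures. Intervals and floor cover counting error only. Ratios between libraries were called at 2-fold where both libraries together held at least 20 UMIs. Free RNA was read from droplets with 10 to 100 UMIs. Shares of cells with a UMI used cells thinned to 1000 UMIs, shallower cells being left out, and their upper limits are exact Clopper-Pearson bounds.

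Named genes were the members in every class, at most 4 other pathway genes per comparison with the largest passing change, and the 3 genes most like each member over class means. Markers were named as well, and Cma1 was chosen after its values were seen.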

Additional observations from a re-analysis of the deposited data

Results flagged for a closer look

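In 87 groups of 4 libraries, a member and class with at least 40 UMIs, 4 had a library far from the other 3, and about 1 group in 20 is so by chance. Notch1 was lowest in the library labelled day 5 in smooth muscle-like cells, at 31.7 CPM against 107, 108 and 112 CPM in the others. It was also lowest there in follicular-like cells, at 26.8 CPM against 39.6, 39.1 and 41.4 CPM. In ILC2-like cells Notch1 was lowest in the library labelled day 10, at 12.6 CPM against 30.6, 28.5 and 31.4 CPM, on 6 UMIs. Jag2 in macrophage-like cells was highest in the library labelled day 5, at 15.4 CPM against 2.89, 3.55 and 1.70 CPM, where free RNA held 19.6 CPM.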

How the results depend on the processing

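Of 844 values recomputed under an alternative, 726 kept their direction and their side of the threshold, 74 lost a call, 17 gained one and 27 turned direction; where a value changed, the cause was not tested. The 3 comparisons (vein-like or arterial-like against capillary-like, and the Fbln5 groups) named in the report as chosen later were added after the data were seen. All alternatives kept the 9 mural calls, with 26.3% to 41.5% of all genes called. They kept 7 or 8 of the 8 arterial against vein calls, with 9.58% to 19.4% of all genes called. The library block is the pairing of this design, since both classes come from the same pool. Without the block 3 members passed in larger vessels (3.76% of all genes), 4 in arterial against capillary (3.44%), 2 between the Fbln5 groups (10.6%) and 0 in Esm1-positive cells (0.0205%). With DESeq2 2 passed between the Fbln5 groups (11.9% of all genes) and 0 in Esm1-positive cells (0.297%), as with no low-count filter (1.18%). For Esm1-positive cells, edgeR found 1 member without the block, 2 without the filter and 3 in the main comparison at an unadjusted p under 0.05, and DESeq2 1. The share of all genes under that unadjusted threshold was not counted. Leaving out 1 library left 2 libraries for Esm1-positive cells and gave 0 to 1 calls there. These were 1 without day 5 (4.6% of all genes called), and 0 without day 10 (0.0515%) or day 30 (0.253%). Between pericytes and smooth muscle, where leaving out 1 library also left 2, it gave 1 to 3 calls with 18% to 25% of all genes called. The 1 was without day 30 (18%). Between the Fbln5 groups it gave 2 to 4 calls with 14.3% to 16.5% of all genes called, the 2 being without day 5 (16.5%). With at most 5% mitochondrial UMIs or with doublets kept, 1 member passed between pericytes and smooth muscle (18% and 11.7% of all genes). With at most 10000 UMIs 1 (of 1 tested) passed between C cells and follicular cells (41.2% of all genes). With no centring per library 4 passed in arterial against capillary (17.1% of all genes). Between the libraries labelled day 20 and day 10, 6 of 41 pairs differed at least 2-fold, against 8.87% of the pairs of all genes.

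In larger vessels against capillary, Dll4 turned to -0.026 with at most 5% mitochondrial UMIs, -0.59 with doublets kept, -0.38 at a resolution of 0.5 and -0.67 with no centring. Notch1 turned to -0.27, -0.019 and -0.21 under the last 3 of these, Notch4 to -0.042 with doublets kept and -0.036 with no centring, and Hes1 to 0.15 with at most 10000 UMIs. With doublets kept, Hes1 between artery and vein turned to -0.031, Dll1 between artery and capillary to 0.14 (0.13 with no centring), and Dll1 and Hey1 between C cells and follicular cells to 0.10 and 0.10. Hes1 between artery and capillary was 0.30 with at most 10000 UMIs, and Jag1 between C cells and follicular cells -0.086 with no filter. Jag2 in Esm1-positive cells was -0.056 with DESeq2 and -0.20 without the block. Leaving out 1 library spanned 0 for Dll1 (-0.21 to 0.066), Jag1 (-0.10 to 0.31) and Jag2 (-0.13 to 0.13) in Esm1-positive cells, Notch2 (-0.23 to 0.12) between pericytes and smooth muscle, Jag1 (-0.13 to 0.28) between C cells and follicular cells, and Dll4 (-0.14 to 0.041) between the Fbln5 groups. Of these differences between classes, Notch1, Notch4 and Hes1 in larger vessels, Hes1 between artery and vein and Dll1 between artery and capillary had passed; the others had not. The turned value itself passed for Notch1 (doublets kept) and Dll4 (doublets kept, resolution 0.5, no centring) in larger vessels and for Hes1 between artery and capillary (at most 10000 UMIs). Of the 11 pairs at least 2-fold apart between day 30 and day 5, day 20 against day 10 turned Hey1 in arterial-like cells (-0.78), Notch2 in capillary-like cells (0.48), and Notch3 (-1.75), Jag1 (-0.81), Jag2 (-0.68) and Hey1 (-2.03) in follicular-like cells; Notch3 in capillary-like cells was 0.47 with no centring.

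Mean levels in the highest class moved by over 1 SD for Notch1 (386 to 326 CPM with no centring), Notch2 (191 to 273 CPM thinned), Notch3 (1351 to 1179 CPM with doublets kept and 1473 CPM as a mean over cells), Dll1 (99.5 to 68.7 CPM with doublets kept, 81.4 CPM at a resolution of 0.5 and 145 CPM thinned), Dll4 (225 to 298 CPM thinned), Jag1 (322 to 232 CPM with at most 5% mitochondrial UMIs) and Jag2 (255 CPM to 211 CPM with at most 10000 UMIs, 332 CPM with at most 5% mitochondrial UMIs, 449 CPM with doublets kept, 349 CPM at a resolution of 0.5, 477 CPM with no centring and 286 CPM as a mean over cells). The arterial-like class held 320 to 964 cells over these settings. The Esm1-positive class formed in the main clustering alone, so its comparison had no value under other cell settings. Only comparisons with at least 3 libraries were tested, so the 2 thymocyte comparisons, with 2 libraries each, were given as values. Small classes limit the depth: the 11 smooth muscle-like and 22 vein-like cells of the library labelled day 20 set the floor for Dll4 and Hey1 there.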
